A study of Rattus norvegicus with 72 samples.

Results

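Wy-14643, a drug-like agonist of the lipid receptor PPARα, was set against control cultures of primary rat hepatocytes at the exposure time labelled 24 h. The comparison takes 6 of the 72 arrays in the series: the 3 arrays titled for Wy-14643 at 250 µM and the 3 titled for the control that this compound shared with clonidine and aflatoxin B1, each pair joined by its D number. The cells were isolated by collagenase perfusion, kept as a monolayer in William's E medium with hydrocortisone and insulin, and exposed from the day after plating. Both groups therefore carry the same hormones, and the labels name neither the rat strain nor the vehicle. The groups used for comparison were clonidine (277 µM) and aflatoxin B1 (19 nM) of the same set, 2-nitrofluorene (78 µM) with a control of its own, and Wy-14643 with its control labelled 72 h, all with 3 arrays each. The labels say that each compound was run in independent biological experiments. They do not say what the D number is. An isolated hepatocyte monolayer keeps few of the liver's other cells, and a drop in such cells cannot be told from less RNA per cell in these bulk samples.

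PPARα is a nuclear receptor that binds fatty acids. It pairs with RXR on a direct repeat of the hexamer AGGTCA with 1 base between the copies and switches on genes that take up, activate, transport and oxidise fatty acids in peroxisomes, mitochondria and microsomes. In rats and mice its agonists enlarge the liver and multiply its peroxisomes, and Wy-14643 is a standard agonist for that response.

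The third pair of arrays stands apart, so the calls below are counted with and without it. Beta-actin probe sets at the 3′ end read above those at the 5′ end by a log2 difference, larger in more degraded RNA, of 0.67, 0.58 and 2.39 on the Wy-14643 arrays of replicates 1, 2 and 3, against 0.74, 0.61 and 2.71 on the control arrays. The replicate 3 arrays labelled 72 h were high too, at 2.12 with Wy-14643 and 2.01 in the control. So were those of clonidine (1.84) and aflatoxin B1 (2.39) at the label 24 h, and replicate 1 of aflatoxin B1 there (1.99). A culture time score built on the controls of the other sets, 0 at their 24 h mean and 1 at their 72 h mean, was −0.02, −0.15 and 0.34 on the Wy-14643 arrays and 0.05, −0.10 and 0.52 on the controls. At the time labelled 72 h it was 0.67, 0.27 and −0.02 with Wy-14643 and 0.76, 0.25 and −0.11 in the controls, so in replicate 3 both arrays scored higher at the label 24 h than at the label 72 h, and in replicates 1 and 2 lower. The replicate 3 arrays of clonidine and aflatoxin B1 did the same, at 0.45 and 0.43 for the label 24 h and −0.05 and −0.07 for the label 72 h. The labelled times of the 8 arrays of D number 3 in this set are therefore in doubt; the labels were kept, and every contrast with all arrays of these groups carries that doubt. Over the 15601 probe sets that were not dim, the log2 change of Wy-14643 over control had an SD of 0.318 in pair 1, 0.301 in pair 2 and 0.976 in pair 3. Array medians lay between 17.69 and 19.84 in these 6 arrays.

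The PPARα response element was looked for in the RefSeq promoters of genes that passed the test below (rat build GRCr8, from 250 bases before the start of the gene to 50 after it). The repeat AGGTCA, any base, AGGTCA, with at most 2 of the 12 fixed letters changed and on either strand, stood in 10 of 136 promoters of genes called higher (7.35%) and in 1 of 132 of genes called lower (0.758%), beside 1020 of all 27457 promoters (3.71%). Among the fatty acid genes called higher it stood in 7 of 32 promoters (21.9%), and among all measured fatty acid genes in 17 of 118 (14.4%). A form with N as the fourth base of each copy (AGGNCA) and no change stood in 1 promoter of the genes called higher, 0 of the genes called lower and 113 of all. These shares describe letters in a short window and carry no test. The 4 promoters with 1 changed letter are shown because their genes, 3 thioesterases and 1 dehydrogenase of fatty acid oxidation, rose in the comparison; capitals mark the match.
Acot4, chr6:109399604-109399903, plus strand: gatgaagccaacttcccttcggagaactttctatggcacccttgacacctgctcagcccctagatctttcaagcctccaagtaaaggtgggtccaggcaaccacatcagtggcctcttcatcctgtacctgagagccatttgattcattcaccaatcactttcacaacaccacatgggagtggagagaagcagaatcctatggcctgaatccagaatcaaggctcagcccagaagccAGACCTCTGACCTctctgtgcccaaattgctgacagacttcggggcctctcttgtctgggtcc
Acot8, chr3:173962139-173962438, minus strand: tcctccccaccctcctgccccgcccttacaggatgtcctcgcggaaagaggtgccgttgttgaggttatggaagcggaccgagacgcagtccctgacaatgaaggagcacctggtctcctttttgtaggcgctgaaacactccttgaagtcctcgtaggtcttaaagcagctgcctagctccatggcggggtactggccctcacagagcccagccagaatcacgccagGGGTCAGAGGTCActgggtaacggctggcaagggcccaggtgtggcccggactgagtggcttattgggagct
Acot12, chr2:24721709-24722008, plus strand: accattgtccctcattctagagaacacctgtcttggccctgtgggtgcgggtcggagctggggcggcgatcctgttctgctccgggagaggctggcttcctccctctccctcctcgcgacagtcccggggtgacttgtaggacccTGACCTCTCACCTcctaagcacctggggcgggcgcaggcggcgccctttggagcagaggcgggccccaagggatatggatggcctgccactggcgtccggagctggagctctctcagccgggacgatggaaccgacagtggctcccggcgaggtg
Acadvl, chr10:55236656-55236955, minus strand: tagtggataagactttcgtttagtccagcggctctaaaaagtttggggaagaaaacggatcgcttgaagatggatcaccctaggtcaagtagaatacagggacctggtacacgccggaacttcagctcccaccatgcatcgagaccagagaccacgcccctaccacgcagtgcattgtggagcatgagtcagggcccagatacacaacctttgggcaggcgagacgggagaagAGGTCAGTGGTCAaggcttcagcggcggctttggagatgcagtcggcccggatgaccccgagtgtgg
The matches began 13, 22, 105 and 17 bases before the start of Acot4, Acot8, Acot12 and Acadvl. Read in the motif's own direction, the sites were AGGTCAGAGGTCT in Acot4, GGGTCAGAGGTCA in Acot8, AGGTGAGAGGTCA in Acot12 and AGGTCAGTGGTCA in Acadvl. The other 3 matches among fatty acid genes called higher, in Crat, Etfa and Slc25a20, had 2 changed letters.

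With all 3 pairs, 383 of 31042 probe sets (1.23%) differed between Wy-14643 and control cultures, 185 higher (0.596%) and 198 lower (0.638%), by limma with Benjamini-Hochberg adjustment at an adjusted p under 0.05. Without the replicate 3 pair the same fit called 9 (0.029%), 7 higher (0.0226%) and 2 lower (0.00644%), with 1327 at an unadjusted p under 0.05, and 6 were called both times. Of the 383, 378 had the sign of the fitted change in pairs 1 and 2. Over all probe sets 21.2% were higher in both of these pairs and 25.6% lower. Both pairs entered the fit that chose the 383, so part of this agreement comes from the selection. The median size of change of the 383 was 0.46 in pair 1 and 0.39 in pair 2 on the log2 scale, beside 1.58 in pair 3. Pair 3 had the largest change of the 3 for 355 of them. In 230 the arrays of the groups did not overlap, beside 2.92% of all probe sets with every treated array above the controls and 4.38% with every one below. Of the 9 calls without replicate 3, 6 were dim probe sets, and their pair 3 change was 0 because both arrays lay at the floor.

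**Figure D1:**
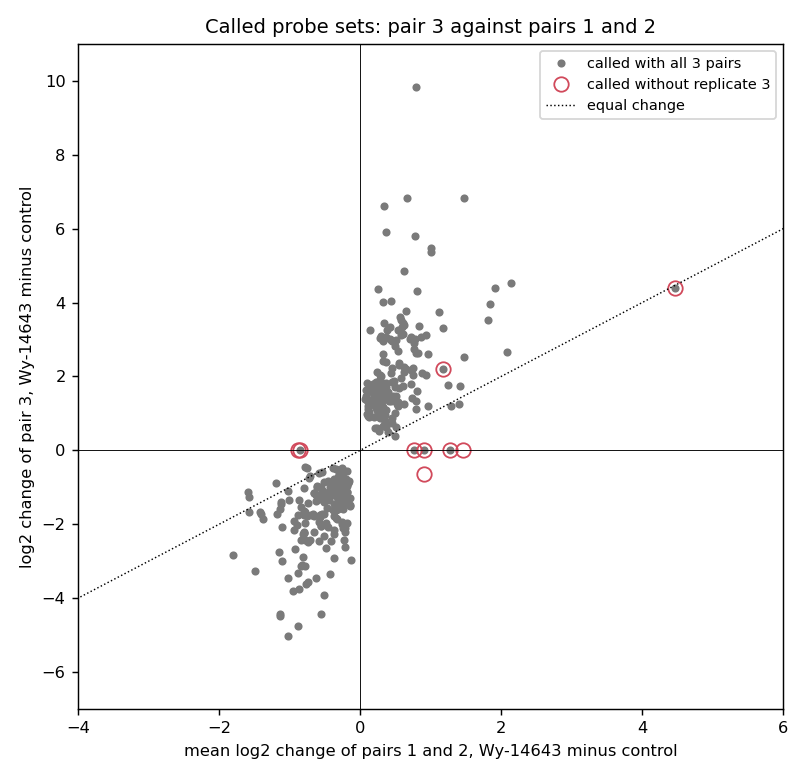
Log2 change (Wy-14643 minus control) of each called probe set, with the mean of pairs 1 and 2 on the x axis and pair 3 on the y axis; grey points are the 383 called with all 3 pairs, red circles the 9 called without replicate 3, and the dotted line marks equal change. Nearly every grey point lies farther from 0 in pair 3, and pair 3 was the largest of the 3 for 355.

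The spread behind these calls is shared by all 24 groups of the series. The 383 called probe sets had a median standard error of 0.188 in that fit, beside 0.389 from their own 3 pairs, and their own was the larger for 346. A fit on the 6 arrays alone called 0 probe sets, with 1497 at an unadjusted p under 0.05, and a fit on the 12 arrays of the set at this time called 0, with 2253. With all groups but no pairing by D number, 17 were called. Centring each array on its median gave 380 higher and 127 lower, in place of 185 and 198.

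The receptor itself showed little signal. Ppara read 12.1, 1.33 and 1.03 on the Wy-14643 arrays and 13.5, 0.977 and 0.398 on the controls, with replicates 2 and 3 under the floor of 3.117 in both groups. Its change was −0.05 ± 0.71 (SE, n = 3 arrays a group, adjusted p = 1 by limma), and the sign turned under other scalings. Of 21 measured genes for PPARα, RXR and their cofactors, 1 rose and 0 fell, beside 0.943% of all genes each way. That one was Creb3l3, a liver transcription factor of lipid metabolism that acts with PPARα. It read 657, 614 and 1909 with Wy-14643, all above the 406, 352 and 408 of the controls, a change of 1.24 ± 0.21 (adjusted p = 0.00233), and of 0.75 (adjusted p = 0.634) without replicate 3. Rxra, the partner of the receptor, read 65.8, 29.6 and 3.00 with Wy-14643 and 68, 27.5 and 12.3 in the controls. The groups overlap, and it was not called.

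The microsomal ω-hydroxylases included 2 of the larger rises. They oxidise the far end of fatty acids, and Cyp4a genes are classical markers of PPARα agonists in rodent liver. Cyp4a3 read 1432, 1078 and 3681 with Wy-14643, against 378, 287 and 177 in the controls. Its change was 1.92, 1.91 and 4.38 in pairs 1, 2 and 3, or 2.74 ± 0.39 in all (adjusted p = 0.000264 by limma), and 1.92 ± 0.42 without replicate 3 (adjusted p = 0.108). Cyp4a1 read 554, 335 and 5616 with Wy-14643, against 129, 112 and 362 in the controls, a change of 2.54 ± 0.56 (adjusted p = 0.0173) and of 1.84 ± 0.66 without replicate 3 (adjusted p = 0.871). All 3 treated arrays of Cyp4a3 lie above all 3 controls. The groups of Cyp4a1 overlap, with the replicate 2 treated array below the replicate 3 control, and its changes were 2.10, 1.57 and 3.95 in the pairs. Cyp4a genes are near copies of each other, and a probe set may read more than 1 of them. Of 11 genes of the list 3 rose and 1 fell, against 0.943% of all 14217 genes in each direction. The other rise was the epoxygenase Cyp2j4, at 0.98 ± 0.18, and the fall was Cyp4f1, at −0.69 ± 0.15, which hydroxylates arachidonic acid and its products. Without replicate 3 neither direction held a call in the list (0 higher and 0 lower).

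**Figure D2:**
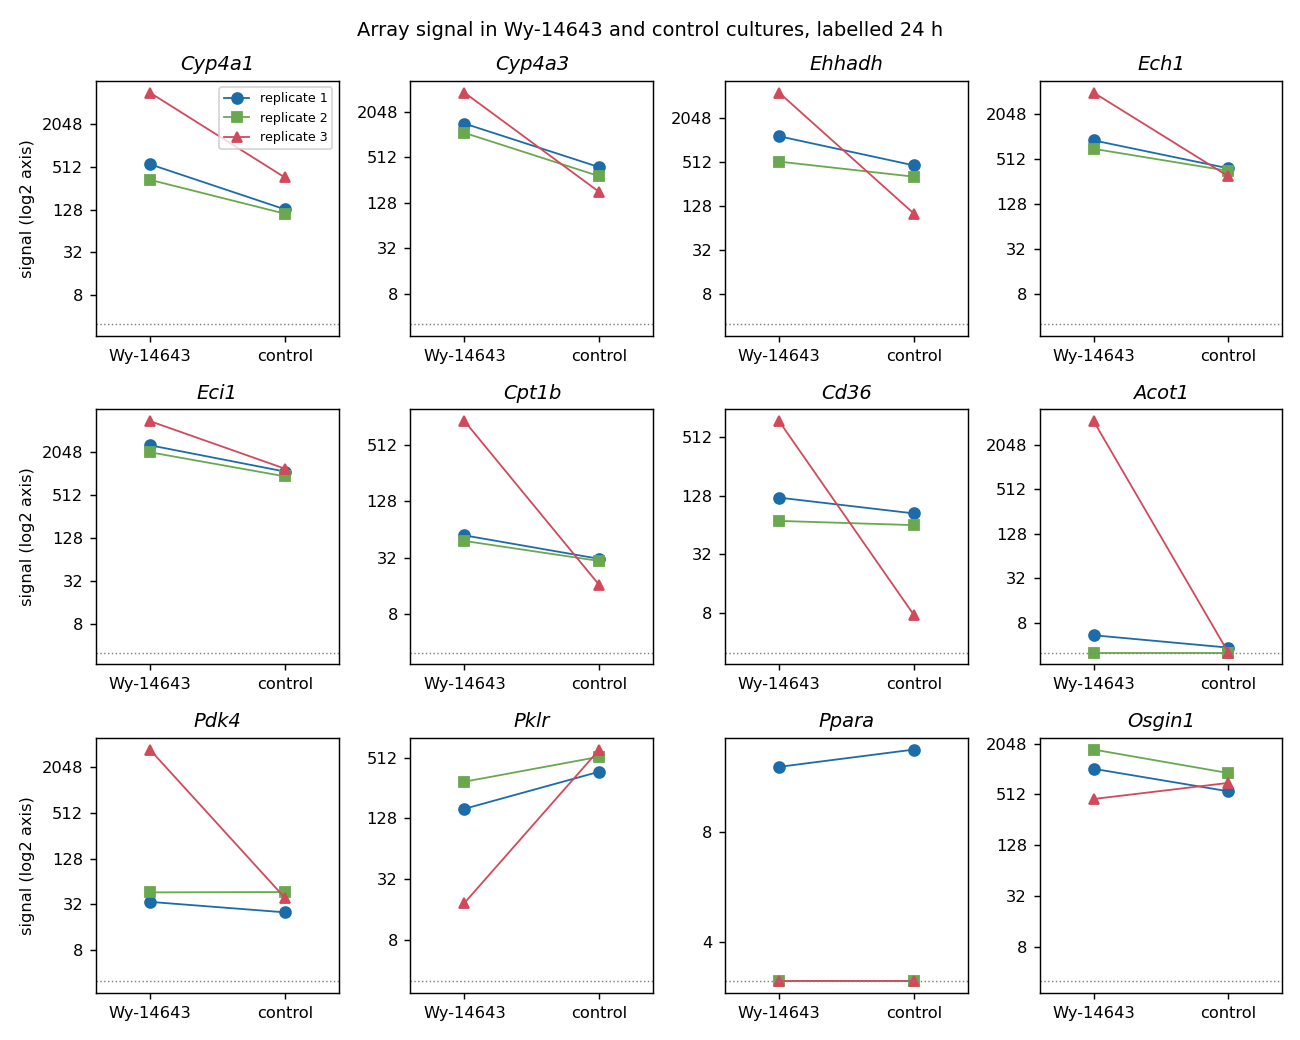
Array signal (log2 axis) of 12 genes on the Wy-14643 arrays (left) and control arrays (right), with a line joining the 2 arrays of a replicate; the dotted line is the floor of 3.117. Cyp4a3, Ech1 and Eci1 rise along all 3 lines, whereas Acot1 and Pdk4 rise along the replicate 3 line, where Acot1 reads 4317 with Wy-14643.

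Genes for fatty acid uptake, activation and storage divided between pairs. Of 33 measured, 4 rose and 1 fell, beside 0.943% of all genes each way, and 0 were called without replicate 3. The median change of the list was 0.00 in pairs 1 and 2 and 0.85 in pair 3. Cd36, which carries fatty acids into cells, read 122, 70.4 and 744 with Wy-14643, against 84, 63.7 and 7.62 in the controls. Its rise of 2.43 ± 0.64 (adjusted p = 0.0463) came to 0.34 ± 0.47 without replicate 3 (adjusted p = 1). Acsl1, which links fatty acids to coenzyme A, read 1109, 1141 and 4651 with Wy-14643, against 879, 970 and 568 in the controls. It rose by 1.20 ± 0.27 (adjusted p = 0.0187), with 0.28 without replicate 3. The lipid droplet genes moved more evenly. Cidea changed by 0.48, 0.49 and 1.71 in the 3 pairs (0.89 ± 0.17, adjusted p = 0.00602), and Plin2, the coat protein of hepatocyte droplets, by 0.29, 0.38 and 0.85 (0.51 ± 0.13, adjusted p = 0.0382). A second probe set of Plin2 gave 0.48 ± 0.28 (adjusted p = 0.449), with 0.11, 0.25 and 1.09 in the pairs. Pnpla3, a droplet lipase gene that follows insulin and lipid synthesis, fell by 1.27 ± 0.29 (adjusted p = 0.0202), with falls of 1.04, 0.84 and 1.92 in the pairs. Angptl4, an inhibitor of lipoprotein lipase, and Fabp1, the liver's fatty acid binding protein, were not called. Angptl4 read 237, 177 and 2256 with Wy-14643 and 125, 94.4 and 372 in the controls, and Fabp1 read 643, 639 and 5508 with Wy-14643 and 381, 467 and 734 in the controls. Both were higher in each pair, and their changes were 1.48 ± 0.45 (adjusted p = 0.0874) and 1.37 ± 0.53 (adjusted p = 0.191).

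The acyl-CoA thioesterases, which release fatty acids from coenzyme A, had the highest median of any list in pair 3. The list changed by a median of 0.49, 0.45 and 3.03 in pairs 1, 2 and 3. Of 10 measured genes 5 rose and 0 fell, beside 0.943% of all genes each way, with 0 called without replicate 3. Of the 10, 7 were higher in all 3 pairs, beside 13% of all genes. Acot4, the peroxisomal member whose promoter is shown above, read 166, 169 and 739 with Wy-14643, against 110, 110 and 67.4 in the controls. It rose by 1.55 ± 0.37 (adjusted p = 0.028), and by 0.60 without replicate 3 (adjusted p = 1), so the treated arrays lie above every control in each replicate. Acot12, a cytosolic acetyl-CoA hydrolase, read 387, 260 and 478 with Wy-14643 and 261, 185 and 50.1 in the controls, with a rise of 1.44 ± 0.32 (adjusted p = 0.0163). Acot8, another peroxisomal member, read 105, 88.1 and 289 with Wy-14643 and 75.3, 60.7 and 105 in the controls, with a rise of 0.82 ± 0.22 (adjusted p = 0.0477). Acot2, the mitochondrial member, rose by 1.47 ± 0.39 (adjusted p = 0.0449), and its other probe sets gave 2.72 ± 0.62 (adjusted p = 0.0188) and 0.80 ± 0.43 (adjusted p = 0.399). Acot1, the cytosolic member and a widely used PPARα marker, had the largest change of all these genes in 1 pair. It read 5.4, 2.94 and 4317 with Wy-14643 and 3.67, 0.258 and 0.184 in the controls. The changes of 0.56, 0.00 and 10.44 in the 3 pairs gave 3.66 ± 1.21, which was not called (adjusted p = 0.11). Acot1, Acot2, Acot3 and Acot4 are close paralogs, and how far their probe sets read each other was not tested.

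The carnitine shuttle carries long acyl chains into mitochondria. Of its 7 genes 4 rose and 0 fell, beside 0.943% of all genes each way, and 0 were called without replicate 3. In all 3 pairs 6 were higher, beside 13% of all genes. Cpt1b, the muscle form of the rate-limiting transferase, read 55.5, 48.4 and 913 with Wy-14643, against 31.2, 29.6 and 16.4 in the controls. It rose by 2.45 ± 0.56 (adjusted p = 0.0202), and by 0.77 ± 0.47 without replicate 3 (adjusted p = 1). Slc25a20, the carrier that exchanges acylcarnitine for carnitine, read 517, 482 and 1593 with Wy-14643 and 319, 334 and 153 in the controls. It rose by 1.54 ± 0.25 (adjusted p = 0.00142), and by 0.61 ± 0.17 without replicate 3 (adjusted p = 0.501). For both genes each treated array lies above every control. Crat rose by 1.60 ± 0.41 (adjusted p = 0.0396) and Cpt2 by 1.16 ± 0.22 (adjusted p = 0.00602). Cpt1a, the liver form of the transferase, read 352, 144 and 1211 with Wy-14643 and 249, 128 and 208 in the controls, a change of 1.07 ± 0.37 that was not called (adjusted p = 0.13).

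Peroxisomal β-oxidation shortens very long and branched acyl chains. Of 39 measured genes of it and of peroxisome biogenesis 10 rose and 0 fell, beside 0.943% of all genes each way, 22 were higher in all 3 pairs and 1 was lower, beside 13% and 18%, and 0 were called without replicate 3. Ehhadh, the bifunctional second enzyme of the pathway, read 1147, 517 and 4510 with Wy-14643, against 459, 322 and 101 in the controls. It rose by 2.49 ± 0.50 (adjusted p = 0.00838), with 1.32, 0.68 and 5.48 in the pairs. Ech1, a dienoyl-CoA isomerase, read 908, 700 and 3958 with Wy-14643, against 383, 354 and 299 in the controls. It rose by 1.98 ± 0.29 (adjusted p = 0.000327), and by 1.11 ± 0.25 without replicate 3 (adjusted p = 0.129). In both genes the groups do not overlap. Pex11a, a membrane protein that divides peroxisomes, read 249, 177 and 1707 with Wy-14643 and 179, 111 and 198 in the controls on its brighter probe set, a rise of 1.42 ± 0.29 (adjusted p = 0.00978). The dimmer set gave 2.03 ± 0.45 (adjusted p = 0.0179). Decr2 (1.48), the α-oxidation lyase Hacl1 (1.43), the epoxide hydrolase Ephx2 (1.33), the coenzyme A hydrolase Nudt7 (1.29), the isomerase Eci2 (1.08), Pex16 (0.72) and the multifunctional Hsd17b4 (0.66) also rose. Crot, the octanoyltransferase that exports shortened chains, gave 1.30 ± 0.42 (adjusted p = 0.101) on its brightest probe set, 2.22 ± 0.55 (adjusted p = 0.0313) on another and 0.14 ± 0.50 (adjusted p = 1) on the last.

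Mitochondrial β-oxidation gave the most calls of any list, with 12 of 26 measured genes higher, 0 lower and 15 higher in all 3 pairs, beside 0.943% of all genes called each way and 13% higher in all pairs. Its Eci1, an enoyl-CoA isomerase for unsaturated fatty acids, was the 1 fatty acid gene called both with and without the third pair. Eci1 read 2507, 2001 and 5460 with Wy-14643, against 1075, 921 and 1181 in the controls. It rose by 1.22, 1.12 and 2.21 in the pairs, by 1.52 ± 0.21 in all (adjusted p = 0.00013) and by 1.17 ± 0.23 without replicate 3 (adjusted p = 0.0365). A dimmer probe set of Eci1 gave −0.76 ± 0.58 (adjusted p = 0.618). Decr1, the reductase of the same branch, read 1706, 1399 and 3845 with Wy-14643, against 916, 835 and 615 in the controls. It rose by 1.43 ± 0.21 (adjusted p = 0.000327), and by 0.82 ± 0.20 without replicate 3 (adjusted p = 0.212). Both subunits of the trifunctional protein rose, Hadha by 1.04 ± 0.18 (adjusted p = 0.00323) and Hadhb by 0.75 ± 0.16 (adjusted p = 0.0113). So did the chain-length dehydrogenases Acadm (1.21), Acadvl (0.73) and Acadl (0.63), the thiolase Acaa2 (1.20), Hadh (1.27), Acad11 (1.03) and the electron carriers Etfdh (0.74) and Etfa (0.56). Acadm, the medium-chain enzyme, read 1119, 945 and 2893 with Wy-14643, against 864, 795 and 359 in the controls, and its replicate 3 arrays are the highest of one group and the lowest of the other.

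Ketone and glucose lists held few calls, where 0.943% of all genes were called each way. Of 8 ketone body genes 1 rose, Acat1, which joins and splits acetoacetyl-CoA, at 1.56 ± 0.30 (adjusted p = 0.00625) with 0.67, 0.48 and 3.52 in the pairs. A second probe set of Acat1 gave 0.81 ± 0.39 (adjusted p = 0.327), with 0.86, −0.20 and 1.75. Of 25 genes that switch cells between glucose and fat 0 rose and 2 fell, while the median change of the list was 0.49, with 0.12, −0.04 and 1.33 in the pairs. In all 3 pairs 10 of them were higher and 5 lower, beside 13% and 18% of all genes, so the lower share was near that of all genes. Pklr, the liver pyruvate kinase of glycolysis, read 159, 295 and 18.6 with Wy-14643, against 371, 521 and 614 in the controls, a fall of 2.36 ± 0.54 on the log2 scale (adjusted p = 0.0207). It fell in each pair, by 1.22, 0.82 and 5.04, and the groups do not overlap; without replicate 3 its change was −1.02 ± 0.54 (adjusted p = 1). A dimmer probe set of Pklr gave −2.96 (adjusted p = 0.057). Mpc1, a subunit of the mitochondrial pyruvate carrier, fell by 0.38 ± 0.10 (adjusted p = 0.0487), with 0.30, 0.31 and 0.53 in the pairs. Pdk4, the kinase that shuts pyruvate out of the citric acid cycle and a PPARα target, read 34.6, 46.1 and 3489 with Wy-14643 and 25.2, 46.6 and 39.3 in the controls. Replicate 3 alone was high, and the change of 2.30 ± 0.75 was not called (adjusted p = 0.105). A second probe set of Pdk4 gave 1.57 ± 0.48 (adjusted p = 0.0887), with 0.08, 0.77 and 3.86 in the pairs.

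Over the 7 lists of fatty acid use together, 39 of 134 measured genes rose and 2 fell with all 3 pairs, against 0.943% of all genes in each direction, and 1 rose and 0 fell without replicate 3, against 0.0281% and 0%. In all 3 pairs 67 were higher and 14 lower, beside 13% and 18% of all genes, and 72 were higher in both pairs 1 and 2 and 29 lower, beside 24.3% and 28.6%. All 3 treated arrays were above all controls for 39 genes, beside 3.67% of all genes, and below them for 6, beside 4.83%. The median change was 0.22, 0.13 and 0.86 in pairs 1, 2 and 3, where all genes had 0.00, 0.00 and −0.01. Without the third pair the median was 0.15. Summed signal of the 134 genes was 85971, 83095 and 167049 with Wy-14643, against 70378, 70540 and 63239 in the controls. The third pair holds both the highest treated and the lowest control sum. Leaving out only the Wy-14643 array of replicate 3, or only its control array, left 4 genes called higher in either case. Leaving out replicate 1 or replicate 2 gave 49 each. Among 22 PPARα targets of other kinds 4 rose and 0 fell, including Vnn1, a pantetheinase, at 1.88 ± 0.34 (adjusted p = 0.00323) and Retsat, a retinol saturase, at 1.25 ± 0.25 (adjusted p = 0.00773).

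**Figure D3:**
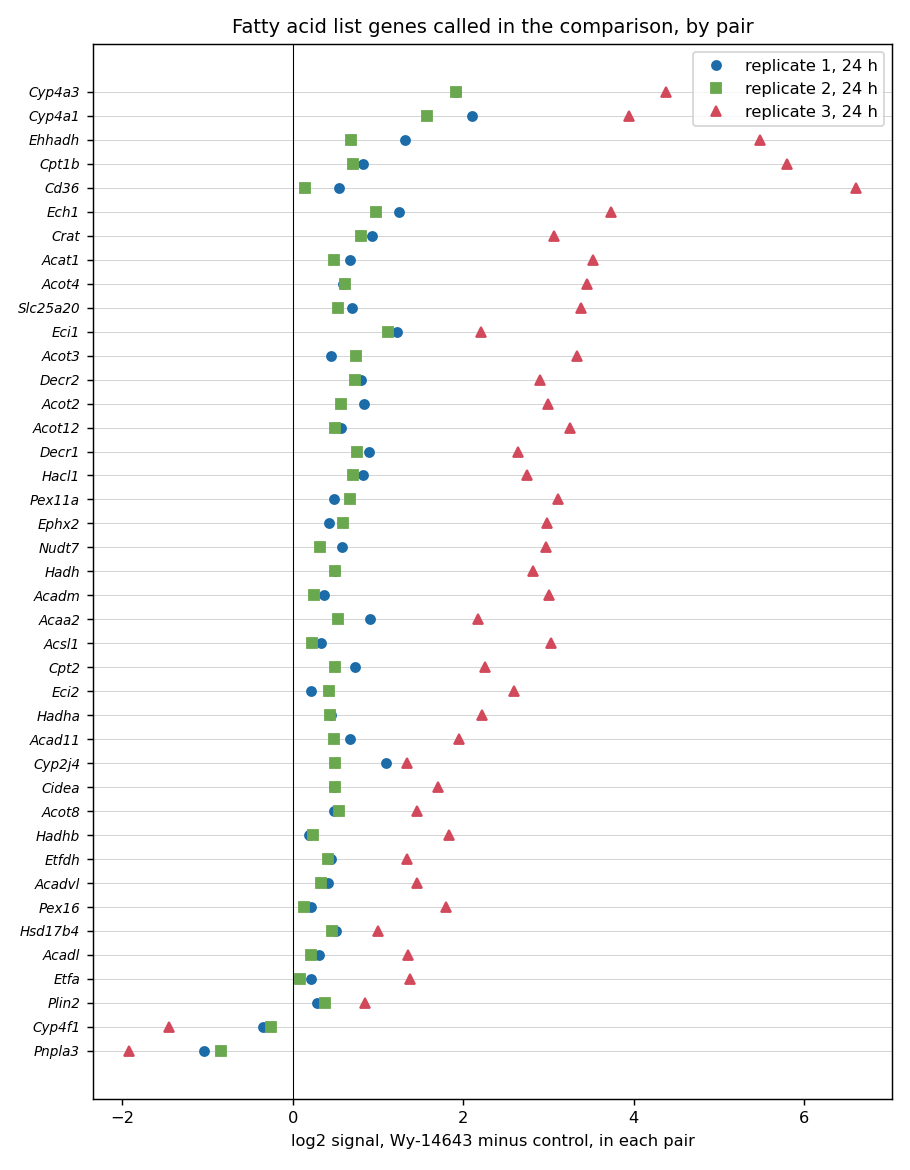
Log2 change (Wy-14643 minus control) in each of the 3 pairs for the 41 fatty acid list genes called with all pairs, in order of the fitted change. The triangles of replicate 3 lie farthest from 0 for each gene, up to 6.61 for Cd36, and the circles and squares of replicates 1 and 2 lie on the same side of 0.

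**Figure D4:**
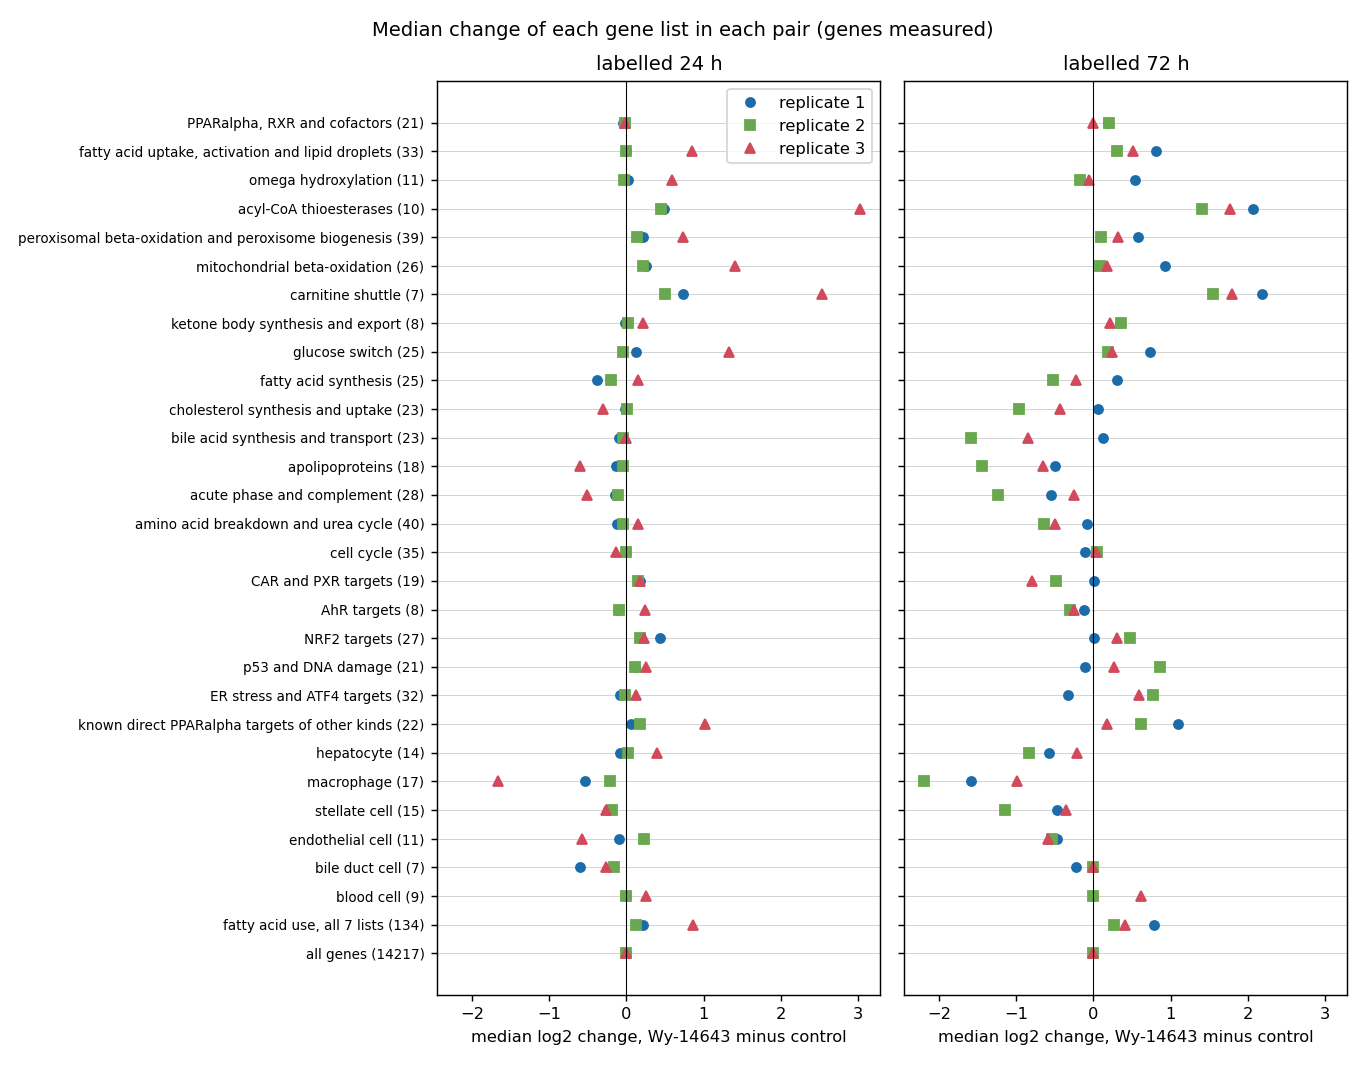
Median log2 change of each gene list (rows, with genes measured) in each pair at the times labelled 24 h (left) and 72 h (right). At 24 h the acyl-CoA thioesterases have medians of 0.49, 0.45 and 3.03 in pairs 1 to 3, and at 72 h 2.07, 1.4 and 1.77.

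Genes of lipid synthesis and secretion gave few calls. Of 25 fatty acid synthesis genes 1 rose and 2 fell, beside 0.943% of all genes each way. In both pairs 1 and 2, 16 were lower, beside 28.6% of all genes. The rise was malic enzyme Me1, which supplies NADPH, at 1.08 ± 0.24 (adjusted p = 0.015). The falls were Pnpla3, given above, and the fatty acid synthase Fasn, which read 275, 401 and 388 with Wy-14643, all below the 573, 614 and 1119 of the controls (−1.07 ± 0.29, adjusted p = 0.05 after rounding and just under the threshold). Of 23 cholesterol genes, 23 bile acid genes and 18 apolipoprotein genes 0 were called. Apoa5, a regulator of plasma triglyceride, came nearest among the apolipoproteins and read 280, 306 and 66 with Wy-14643 and 488, 404 and 316 in the controls (−1.15 ± 0.33, adjusted p = 0.0648). Of 28 acute phase and complement genes 2 fell: Hamp, the iron hormone hepcidin, by 2.19 ± 0.54 (adjusted p = 0.0317) and complement C6 by 1.21 ± 0.28 (adjusted p = 0.022). Hamp read 1092, 701 and 110 with Wy-14643, against 2569, 1026 and 3010 in the controls. The list had 15 genes lower in all 3 pairs, beside 18% of all genes, and 0 calls without replicate 3.

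Some changes were of like size in all 3 pairs, in a probe set without a name and among xenobiotic genes. Probe set 1371076_at, which the annotation assigns to more than 1 gene and which is therefore left without a name, read 4015, 3728 and 1666 with Wy-14643, against 209, 149 and 79.5 in the controls. It rose by 4.27, 4.65 and 4.39 in the 3 pairs, by 4.43 ± 0.58 in all (adjusted p = 0.000125) and by 4.46 ± 0.73 without replicate 3 (adjusted p = 0.00564). The rise was not particular to Wy-14643, since the clonidine arrays also lay above the same controls on average (see the clonidine contrast below). Of 19 genes controlled by the drug receptors CAR and PXR, 2 rose and 0 fell, beside 0.943% of all genes each way. Without replicate 3, 0 of them were called. Cyp2c6v1, a drug-metabolising cytochrome, read 4453, 4272 and 2240 with Wy-14643, against 1850, 1734 and 975 in the controls. It rose by 1.27, 1.30 and 1.20 (1.26 ± 0.31, adjusted p = 0.0324) and had 1.28 without replicate 3 (adjusted p = 0.596), so its size did not rest on the third pair. Aldh1a1, the retinal dehydrogenase, rose by 1.51 ± 0.28 (adjusted p = 0.00538). The heme synthesis enzyme Alas1 was higher by 0.79, 0.55 and 0.79 and just missed the threshold (0.71 ± 0.19, adjusted p = 0.0536).

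Antioxidant genes under NRF2 had a median change of 0.43, 0.18 and 0.23 in the 3 pairs, and 11 of 27 were higher in all of them and 1 lower, beside 13% and 18% of all genes. Of the 27, 2 rose with all pairs (Me1 and the aldehyde reductase Akr7a3, at 1.03 ± 0.25, adjusted p = 0.0311), beside 0.943% of all genes. Without replicate 3, 1 rose, beside 0.0281% of all genes. That one was Osgin1, a growth inhibitor induced by oxidative stress, which read 1031, 1743 and 452 with Wy-14643 and 557, 917 and 702 in the controls. Its changes were 0.89, 0.93 and −0.64, which gave 0.39 ± 0.18 with all pairs (adjusted p = 0.278) and 0.91 ± 0.16 without replicate 3 (adjusted p = 0.011). Srxn1 and Txnrd1, which repair oxidised thiols, were not called and also had positive changes in pairs 1 and 2 (1.28 and 0.73, 1.15 and 0.36) and negative ones in pair 3 (−0.79 and −0.35). Hmox1, one of the fixed genes, went the other way in pair 3, with changes of 0.41, 0.18 and 2.79. It was not called (1.12 ± 0.39, adjusted p = 0.135 by limma), and with clonidine it changed by 2.06 against the same controls (adjusted p = 0.0127). Of the 27 genes, 19 were higher in both pairs 1 and 2, beside 24.3% of all genes. With all arrays, Osgin1 changed by 0.65 with clonidine (adjusted p = 0.0914 by limma) and by 0.57 with aflatoxin B1 (adjusted p = 0.0497), against the same controls. Wy-14643 differed from these compounds by −0.26 and −0.17, and neither difference was called. The list's median change was 0.3 with Wy-14643, 0.68 with clonidine, 0.15 with aflatoxin B1 and 0.61 with 2-nitrofluorene. Of 8 AhR targets, 21 p53 genes, 32 ER stress genes, 35 cell cycle genes and 40 genes of amino acid breakdown and the urea cycle 0 were called with all pairs. Over all probe sets 4567 had an unadjusted p under 0.05. Cyp1a1, the AhR marker, had −0.15 ± 0.75, Mdm2, the p53 marker, 0.22 ± 0.23, and Cdkn1a −0.17 ± 0.18. Other probe sets of Mdm2 gave 1.11 ± 0.37 (adjusted p = 0.112) and −0.06 ± 0.21, neither called.

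Of the 15 largest rises among bright probe sets with 1 gene name, 5 lay outside the fatty acid lists and the other PPARα targets. Hsdl2, a peroxisomal dehydrogenase-like protein, read 577, 571 and 2290 with Wy-14643, against 286, 288 and 55.2 in the controls, and rose by 2.46 ± 0.42 (adjusted p = 0.00211) on this probe set. Its groups do not overlap, and without replicate 3 its change was 1.00 ± 0.30 (adjusted p = 0.637). Its brighter set rose by 1.4 (adjusted p = 0.00263). The phosphodiesterase Gde1 rose by 1.69 on its 1 set. Por, the electron donor of microsomal cytochromes, rose by 1.97 ± 0.50 on 1 set (adjusted p = 0.0367), and its brighter set gave 0.62 (adjusted p = 0.0564), with 0.52, 0.72 and 0.61 in the pairs. Aig1, which hydrolyses fatty acid esters of hydroxy fatty acids, gave 1.68 (adjusted p = 0.0267) on its brighter set and 0.38 (adjusted p = 0.548) on the other. Tlcd4 gave 1.64 (adjusted p = 0.03) on 1 set, 0.69 (adjusted p = 0.0597) on its brightest and −0.53 (adjusted p = 0.713) on the last.

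Pklr and Hamp, given above, were among the 15 largest falls. Mgp, a matrix protein, read 9.91, 8.12 and 1.01 with Wy-14643, against 18.2, 21.3 and 67.5 in the controls, and fell by 2.23 ± 0.53 (adjusted p = 0.0253). The scavenger receptor Olr1 fell by 2.08, the lectin Cd209f by 2.25, Rbp7 by 1.72, Celf5 by 1.65 and the metalloreductase Steap4 by 1.59. Cd209f read 4.87, 4.89 and 4.48 with Wy-14643, near the floor of 3.117, against 14, 8.27 and 99.9 in the controls. Celf5 read 13, 10.6 and 15.3, against 17.6, 16 and 231. In both genes the replicate 3 control lies far above the other arrays. Several of these falls, among them Cd209f and Celf5, counted as bright by the control mean alone. Other falls were called on 1 probe set of a gene and not on its others. For Dpt, a collagen-binding protein, 1 set gave −1.85 (adjusted p = 0.0143) and its brightest −0.79 (adjusted p = 0.195), and for the collagen chain Col5a1 1 set gave −1.70 (adjusted p = 0.0238) and its brightest −0.20 (adjusted p = 0.951). For the transcription factor Klf2 1 set gave −1.91 (adjusted p = 0.0111), its brightest 0.25 (adjusted p = 0.336) and the other 3 between −0.72 and 0.00, none called. Dpt and Col5a1 were negative on both sets, and the size of their change is not settled. For Klf2 the direction is not settled by these probe sets. Cyth3 gave −2.14 (adjusted p = 0.0256) on its brightest set, with −3.58, −0.02 and −2.83 in the pairs, and 0.03 (adjusted p = 1) on the other. The phosphatase Ptprm gave −1.83 (adjusted p = 0.022) and −0.97 (adjusted p = 0.272). Aif1, a macrophage protein, read 16.2, 11.6 and 0.4 with Wy-14643, against 37.7, 20.6 and 34 in the controls, and fell by 1.83 ± 0.38 (adjusted p = 0.0113). A second probe set of Aif1 gave −1.39 ± 0.52 (adjusted p = 0.17). None of these falls was called without replicate 3 (0 lower calls among bright named probe sets).

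Macrophage markers moved with these falls. Of 17 measured, 2 fell (Aif1 and Tyrobp), beside 0.943% of all genes, and 15 were lower in all 3 pairs, beside 18%. Without replicate 3, 0 were called. Their median change was −0.54, −0.21 and −1.67 in the 3 pairs. Their summed signal was 1533, 1390 and 367 with Wy-14643, against 1940, 1581 and 844 in the controls, and the replicate 3 arrays are the lowest of each group. Stellate cell markers gave 0 calls of 15 and 7 lower in all pairs, beside 18% of all genes. Their sums were 1852, 1401 and 1214 with Wy-14643, against 2709, 1487 and 3684 in the controls. Hepatocyte markers gave 0 calls of 14, with sums of 48661, 51772 and 36353 with Wy-14643 and 51657, 49844 and 31684 in the controls. Endothelial, bile duct and blood markers gave 0 calls of 11, 7 and 9 genes. The part of other liver cells in the falls was not tested.

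Against clonidine, a compound of the same set, 53 probe sets were higher (0.171%) and 29 lower (0.0934%) with Wy-14643, and 20 of the 134 fatty acid genes were higher and 2 lower (background 0.253% and 0.183% of genes). This contrast uses no control array. Cyp4a1 was higher than with clonidine by 3.30 ± 0.56 (adjusted p = 0.00271), Ehhadh by 2.87 ± 0.50 (adjusted p = 0.00287), Cyp4a3 by 2.54 ± 0.39 (adjusted p = 0.00129) and Eci1 by 1.52 ± 0.21 (adjusted p = 0.000238). Leaving out the replicate 3 arrays of both groups gave 6 higher and 3 lower probe sets (0.0193% and 0.00966%). Of the fatty acid genes 2 stayed above the threshold, Eci1 at 1.27 ± 0.22 (adjusted p = 0.011) and Decr1 at 1.01 ± 0.20 (adjusted p = 0.043). Probe set 1371076_at did not pass this test (1.22 ± 0.58, adjusted p = 0.589). That difference is smaller than its rise over control, so clonidine shared part of the rise.

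Against aflatoxin B1 many more probe sets differed, 1224 higher (3.94%) and 1327 lower (4.27%), or 8.22% in all. Of the 134 fatty acid genes 49 were higher and 8 lower with Wy-14643, beside 4.85% and 6.34% of all genes. Without the replicate 3 arrays of both groups 14 were higher and 6 lower, beside 2.64% and 4.11%. This reduced contrast kept replicate 1 of aflatoxin B1, whose actin log2 difference was 1.99. The 14 included Ehhadh at 2.68 ± 0.43 (adjusted p = 9.43e-05), Cyp4a3 at 1.70 ± 0.43 (adjusted p = 0.0131), Hadh at 1.21 ± 0.26 (adjusted p = 0.00381), Hsd17b4 at 0.80 ± 0.17 (adjusted p = 0.00297) and Cpt2 at 0.85 ± 0.22 (adjusted p = 0.0157). These differences also hold what aflatoxin B1 itself changed. Against control, Ehhadh changed by −1.41 with aflatoxin B1 (all arrays), and by 1.00 with Wy-14643 without replicate 3, which was not called. Of 21 p53 genes 0 were higher and 13 lower with Wy-14643 than with aflatoxin B1, and 9 lower without replicate 3. Macrophage markers gave 0 higher and 14 lower of 17 in the same contrast (median −1.58), and 2 lower without replicate 3, and stellate markers gave 5 lower of 15, and 0 without it. The part of these cells in this contrast was not tested. Against control, with all arrays, aflatoxin B1 itself had a median change of 1.07 for the p53 genes and 0.71 for the macrophage markers. For the stellate markers it was 0.26 and for the fatty acid genes 0.03.

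**Figure D5:**
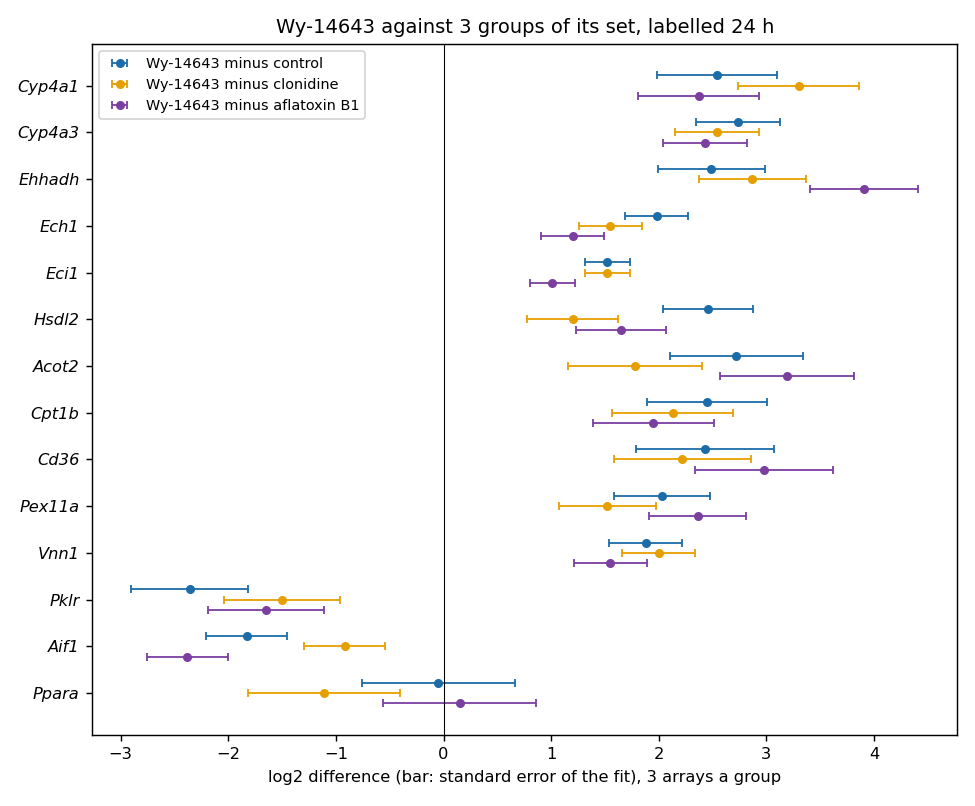
Log2 difference of Wy-14643 from control, from clonidine and from aflatoxin B1 for 14 genes, with the standard error of the fit as bars and 3 arrays a group. Cyp4a1 lies at 2.54, 3.30 and 2.37 in the 3 comparisons, and Ppara at −0.05, −1.11 and 0.15.

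The 2-nitrofluorene comparison has arrays of its own, and its effect could be set against that of Wy-14643 by a test of the difference. 2-Nitrofluorene itself changed 1144 probe sets against its control (3.69%), 494 higher (1.59%) and 650 lower (2.09%). With all arrays 2 probe sets differed between the effects (0.00644%), 1 each way (0.00322%). Without the replicate 3 pair of Wy-14643 75 differed (0.242%), 15 more positive (0.0483%) and 60 more negative (0.193%) with Wy-14643. Of the 134 fatty acid genes 0 had the more positive effect with Wy-14643 and 17 the more negative, beside 0.0774% and 0.288% of all genes. Ehhadh changed by 1.00 with Wy-14643 in pairs 1 and 2 and by 4.42 with 2-nitrofluorene, a difference of −3.42 ± 0.54 (adjusted p = 0.000533). Acsl1 had a difference of −1.96 ± 0.26 (adjusted p = 5.09e-05), Pex11a of −2.29 ± 0.28 (adjusted p = 6.72e-06), Ech1 of −1.76 ± 0.33 (adjusted p = 0.00631) and Acot1 of −8.57 ± 1.25 (adjusted p = 0.000211). The dose of 78 µM and the control of 2-nitrofluorene differ from those of Wy-14643.

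At the time labelled 72 h, 1370 probe sets were higher (4.41%) and 2086 lower (6.72%) with Wy-14643, and 249 of the 383 were called there too in the same direction. The difference between the effects at 72 h and 24 h was called for 6 probe sets (0.0193%) with all arrays, 2 more positive (0.00644%) and 4 more negative (0.0129%) at 72 h. Leaving out only the 24 h pair of replicate 3 gave 166 and 213 (0.535% and 0.686%). Without replicate 3 at both times 237 effects were more positive at 72 h and 320 more negative (0.763% and 1.03%), and 22 of the 134 fatty acid genes were more positive and 1 more negative, beside 1.09% and 1.65% of all genes. Acot1, at 0.56 and 0.00 in pairs 1 and 2 at 24 h, changed by 10.43 and 10.18 in the same pairs at 72 h (difference 10.03 ± 1.30, adjusted p = 1.57e-05). Replicate 3 had 10.44 at 24 h and 9.08 at 72 h. Cpt1b changed by 0.83, 0.71 and 5.80 in the pairs at 24 h and by 6.18, 4.84 and 3.44 at 72 h (difference without replicate 3 4.74 ± 0.61, adjusted p = 1.57e-05). Cd36 changed by 0.54, 0.14 and 6.61 at 24 h and by 4.40, 3.22 and 2.53 at 72 h (3.47 ± 0.63, adjusted p = 0.00131). Pdk4 changed by 0.46, −0.01 and 6.47 at 24 h and by 6.17, 5.53 and 6.16 at 72 h. In these 4 genes the change of pair 3 at 24 h is nearer to those of pairs 1 and 2 at 72 h than to those at 24 h. Cyp4a3 and Eci1 differ from them, with 1.92, 1.91 and 4.38 at 24 h and 2.14, 1.52 and 4.40 at 72 h for Cyp4a3, and 1.22, 1.12 and 2.21 at 24 h and 1.60, 1.63 and 2.21 at 72 h for Eci1. Across the 15601 probe sets, the change of pair 3 at 24 h correlated at 0.32 with the mean of pairs 1 and 2 at 24 h and at 0.48 with that mean at 72 h. The change of pair 3 at 72 h correlated at 0.35 with the 24 h mean and at 0.65 with the 72 h mean, so both were nearer to the 72 h mean. Pairs 1 and 2 correlated with each other at 0.34 at 24 h and at 0.41 at 72 h. These are descriptions across probe sets that share arrays and platform. The part of the actin ratios and the culture time scores of replicate 3 in this was not tested.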

How the data were processed

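Total RNA was hybridised to Affymetrix rat arrays, 1 sample each. Per the submitters' processing notes the deposited intensity values were made with MAS5, with no version stated. They are linear, and the trimmed mean of each array (2% off either end) is 99.99. Lower values were raised to a floor of 3.117 (20th percentile over all arrays) before taking log2, so changes of dim genes are understated. The precision is limited by 3 arrays a group, and the p-values rest on a spread pooled over all groups of the series.

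The 31042 probe sets left after 57 controls were fitted in limma 3.58.1 (R 4.3.3) as 24 group means plus the D number within each exposure time (36 residual degrees of freedom), with eBayes and an intensity trend. The same D number paired the arrays: deviations of same-numbered arrays from their group means correlated at 0.59, 0.56 and 0.56, and of the others at −0.54 to 0.24. Dim means that neither group mean reached 19.74, the table's median. Each of 14217 genes is its brightest probe set with 1 symbol in the platform annotation (20826 probe sets with 1 symbol, 436 with several, 9780 with none). The fit was tested on simulated data with the same spread for every array of a probe set. The unequal spread of the pairs was not covered by that test.

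The members, lists and tests were chosen with earlier results of these data known. Named were the 15 largest rises and falls among bright probe sets called with the same sign in all pairs, the 10 each way without replicate 3, up to 6 members of each list by size of change, and 22 fixed genes. Further called list members, probe set 1371076_at, second probe sets, Srxn1, Txnrd1, Alas1 and the families of the closing section were added after their values were seen. Promoters are those of RefSeq. The alternatives were other floors, scalings, filters and fits, and leaving out arrays.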

Additional observations from a re-analysis of the deposited data

Results flagged for a closer look

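In 8 probe sets the Wy-14643 effect differed between exposures by a test of the difference itself with all arrays (limma, Benjamini-Hochberg). All 8 were called in the same direction without the replicate 3 pairs, and none of them with no replicate block, where 0 probe sets were called in either contrast. Between the times labelled 72 h and 24 h, Rab29 differed by −0.84 ± 0.14 (adjusted p = 0.0132), with changes of −0.81 at 72 h and 0.04 at 24 h, and −1.03 without replicate 3. Clcn3, a chloride transporter, differed by 1.28 ± 0.22 (adjusted p = 0.0161), with 0.93 at 72 h and −0.35 at 24 h (1.22 without replicate 3), and the guanine deaminase Gda by −1.86 ± 0.34 (adjusted p = 0.0195), with −2.31 at 72 h and −0.45 at 24 h (−2.34). The probe sets without 1 gene name were 1375088_at, at 2.88 ± 0.50 (adjusted p = 0.0161; 2.72 without replicate 3), 1384671_at, at −2.94 ± 0.56 (adjusted p = 0.0384; −4.43), and 1370320_at, at −1.50 ± 0.29 (adjusted p = 0.0469; −1.62).

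Between Wy-14643 and 2-nitrofluorene at 24 h, Etfbkmt, a methyltransferase of an electron carrier, differed by 1.17 ± 0.19 (adjusted p = 0.012), with 0.38 for Wy-14643 and −0.79 for 2-nitrofluorene, and by 1.01 without replicate 3. Elovl6, which lengthens fatty acids, differed by −2.43 ± 0.42 (adjusted p = 0.0145), with 0.46 for Wy-14643 and 2.89 for 2-nitrofluorene, and by −3.01 without replicate 3.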

How the results depend on the processing

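The count of 383 stayed within 1.5 times under a floor at the 40th percentile (373), log2(value + 16) (383), quantile normalization (354), median centring (507), no intensity trend (359) and robust eBayes (406). It moved to 794 with dim probe sets left out, 17 with no replicate block, 0 with the block on the set's arrays or on the 6 arrays alone, and 10 without all arrays of D number 3. Leaving out a pair or an array gave 9 to 1673, with 1673 without control replicate 1, 16 without Wy-14643 replicate 3 and 12 without control replicate 3. The count of 9 without replicate 3 moved to 4 on the set's arrays, 3 with the filter and 47 with the higher floor. The 39 fatty acid genes became 5 with no replicate block, 0 in both fits on fewer arrays, 3 without D number 3, and 1 to 51 with a pair or an array left out. Other counts moved as follows with no replicate block and without replicate 3: against clonidine (82) 2 and 9, against aflatoxin B1 (2551) 759 and 1721, against the effect of 2-nitrofluorene (2) 0 and 75, and between 72 h and 24 h (6) 0 and 557. Genes that were not called changed sign: Ppara (−0.05) gave 0.01 with log2(value + 16), 0.02 with median centring and −0.49 to 0.35 with a pair or an array left out (0.35, 0.25 and 0.08 where the sign turned), Cyp1a1 (−0.15) gave 0.13 without D number 3 and −0.46 to 0.19 with a pair or an array left out (0.13, 0.19 and 0.01 where the sign turned), and Mdm2 (0.22) gave −0.00 without control replicate 3, of a range up to 0.38. Of 47 named probe sets 36 were called in the main fit, and all 36 lost their call on the 6 arrays alone. Of these 36, 31 lost it with no replicate block and 35 without replicate 3, where Eci1 kept it. The 8326 probe sets with 1 sign in all 3 pairs were 6122 without dim ones, an alternative chosen after seeing the data. The cause of these moves was not tested, beyond the fewer arrays of some fits.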

Other observations

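Proteasome subunits were not among the lists and were looked at as a family after some had been seen among the calls, so they carry no test of the family. Of 36 measured subunits 6 rose and 0 fell with all 3 pairs, beside 0.943% of all genes each way, and 0 were called without replicate 3. In all 3 pairs 22 were higher and 3 lower, beside 13% and 18% of all genes. The family's median change was 0.27, 0.20 and 0.16 in pairs 1, 2 and 3, so the median was not larger in the third pair. Each of the 6 called subunits, however, changed most in pair 3, such as Psmd8 with 0.11, 0.15 and 1.25. Psma1, a subunit of the catalytic core, read 1436, 1401 and 1661 with Wy-14643, against 1061, 1028 and 996 in the controls, a rise of 0.54 ± 0.12 (limma, adjusted p = 0.0202) and 0.44 without replicate 3 (adjusted p = 0.835). Psmc1, an ATPase of the cap, rose by 0.61 ± 0.12 (adjusted p = 0.00602), with 0.36, 0.20 and 1.28 in the pairs. Without replicate 3 it had 0.28 (adjusted p = 0.94).

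Laminin and nidogen chains of the basement membrane were also picked after values were seen. Of 12 laminin and nidogen genes 1 fell, Nid1, by 1.12 ± 0.22 (adjusted p = 0.00842), and 6 were lower in all 3 pairs, beside 0.943% and 18% of all genes. Nid1 read 54, 20.7 and 18.1 with Wy-14643, against 91.6, 37.2 and 60.4 in the controls, with falls of 0.76, 0.85 and 1.74. Of 41 collagen genes, each read by its brightest probe set, 0 were called and 9 were lower in all 3 pairs, a share near that of all genes.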
